A study of Mus musculus with 2 samples.

Results

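Regulatory T cells (Tregs) were examined among CD45+ cells sorted from mouse MC38 tumors, and 888 of 19950 kept cells were Tregs. They were chosen by raw counts of unique molecular identifiers (UMIs), each of which stands for 1 captured transcript. A Treg had at least 1 UMI of a CD3 chain gene (Cd3d, Cd3e or Cd3g), at least 1 UMI of Foxp3, no UMI of Cd8a or Cd8b1 and fewer than 10 UMIs of the complement genes C1qa, C1qb and C1qc together, which macrophages express strongly. The MWA library held 472 such cells and the MWA plus TIGIT library held 416.

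MC38 is a mouse colon cancer line, and it was implanted under the skin of both flanks of male C57BL/6 mice that were 6 to 8 weeks old. In both groups the right tumor alone received microwave ablation (MWA), a local heat treatment, at a volume near 300 mm3, so no group without MWA was available. The MWA plus TIGIT group also had 3 intraperitoneal doses of anti-TIGIT antibody at intervals of 3 days from day 1 after MWA. The MWA group had an isotype control antibody according to the study's methods. Left tumors, which were not ablated, were taken on day 8 and CD45+ cells were sequenced with 10x Genomics V3.1 chemistry, 1 library per group. How many mice went into a library was not given in the sources used here.

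Tregs are CD4+ T cells that restrain other immune cells, and the transcription factor Foxp3 holds their identity. They consume interleukin-2 through the high-affinity receptor that contains Il2ra, remove costimulatory ligands from dendritic cells through Ctla4, and release inhibitory or tissue-repair factors such as Il10 and Areg. TIGIT is an inhibitory receptor of T cells and natural killer cells that competes with the activating receptor CD226 for shared ligands. Tregs of tumors are known to carry more TIGIT than most other T cells.

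With 1 library per group there was no replicate check, so no test between groups was made and all differences are between 2 libraries. Levels are in CPM, the UMIs of a gene per 1000000 UMIs summed over the cells of a class in a library, and every interval is a 95% interval that covers counting error only. Cells of a library are not replicates of a treatment, and UMIs of a gene that cluster in few cells vary more than these intervals show. The Tregs held 1502680 UMIs in the MWA library and 1514327 in the MWA plus TIGIT library. A Treg had a median of 2545.5 UMIs and 1114 genes in the first and of 2971 UMIs and 1286 genes in the second. In CD8 T cells the order was the other way, with a median of 4327 UMIs in the first library and 4051 in the second. Of the cell barcode sequences, 37 occurred in both libraries, and none of them was a Treg in both.

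Where the Foxp3 limit lay is described first, as the values that chose the cells. Foxp3 was detected in 614 kept cells of the MWA library and 561 of the MWA plus TIGIT library. Of these, 32 and 35 had no CD3 UMI. A further 71 and 73 had a CD3 UMI and a Cd8 UMI, and 39 and 37 had CD3 but at least 10 C1q UMIs. Within the Tregs, 228 and 147 cells rested on a single Foxp3 UMI, and 51.7% and 64.7% had at least 2. Only 31.6% and 34.6% had a UMI of Cd4 itself, a gene that is captured poorly, and this was not required.

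The label was checked on Il2ra, Ikzf2 and Ctla4, which the selection did not use. In Tregs just inside the limit, with 1 Foxp3 UMI, Il2ra was at 716 CPM in the MWA library and 843 CPM in the MWA plus TIGIT library, against 884 and 897 CPM in Tregs with 3 or more. Conventional CD4 T cells, defined by CD3 and Cd4 UMIs without Foxp3, Cd8 or 10 C1q UMIs, lay just outside at 106 and 103 CPM. Cells with a single Foxp3 UMI were thus near the other Tregs and far from conventional CD4 T cells. Ikzf2, which encodes the transcription factor Helios, was at 1068 and 1406 CPM in Tregs with 1 Foxp3 UMI and at 136 and 145 CPM in conventional CD4 T cells. Of the conventional CD4 T cells, 52 of 617 and 56 of 630 held UMIs of both Il2ra and Ikzf2. How many Tregs without a captured Foxp3 UMI stood in that class was not tested. The Foxp3 cells left out for 10 or more C1q UMIs had a median of 13747 and 12231 UMIs, Il2ra at 192 and 244 CPM, and the macrophage lysozyme gene Lyz2 at 11044 and 14127 CPM. The Foxp3 cells left out for a Cd8 UMI, 61 and 67 with fewer than 10 C1q UMIs, had Il2ra at 288 and 504 CPM, Ikzf2 at 603 and 1001 CPM and Ctla4 at 474 and 696 CPM. Their levels lay between those of conventional CD4 T cells and of Tregs.

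Free RNA and macrophage RNA could be measured in the Tregs themselves. At least 1 C1q UMI stood in 305 of 472 Tregs of the MWA library and 269 of 416 of the MWA plus TIGIT library. The 16 macrophage and monocyte markers summed to 2569 CPM and 2777 CPM in Tregs, to 2154 and 1948 CPM in conventional CD4 T cells, and to 55132 and 62576 CPM in macrophages. All 16 had UMIs in Tregs of both libraries. The markers include C1qa, C1qb and C1qc, whose UMIs the selection limited in Tregs and in conventional CD4 T cells. The contrast of these sums with macrophages was therefore partly set by the selection. Foxp3 UMIs were found in only 17 of 3808 and 23 of 4241 macrophages, so free Foxp3 RNA was rare. Marker sums of other cells in Tregs were 1508 and 1352 CPM for dendritic cells, 385 and 347 CPM for natural killer cells, 1247 and 1518 CPM for CD8 T cells, 37 and 7 CPM for neutrophils, 18 and 7 CPM for gamma-delta T cells, 35 and 48 CPM for tumor or stroma, and 222 and 2101 CPM for B or plasma cells. The CD8 T cell markers include Cd8a and Cd8b1, which the selection held at 0 in Tregs. They also include Ccl5, at 659 and 886 CPM in Tregs and at 1219 and 1428 CPM in conventional CD4 T cells. A simulation-based caller marked 13 and 17 Tregs as doublets.

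Tregs made up 4.70% (4.30 to 5.14) of kept cells in the MWA library and 4.20% (3.81 to 4.61) in the MWA plus TIGIT library, a difference of -0.51 points (-1.09 to 0.07). Among all T cells the shares were 11.2% and 10.4%, differing by -0.71 points (-2.07 to 0.65). Of Tregs and conventional CD4 T cells together, Tregs were 43.3% and 39.8%, differing by -3.57 points (-7.80 to 0.68). Conventional CD4 T cells needed a Cd4 UMI and Tregs did not, so this is not the Treg share of all CD4 T cells. With a Cd4 UMI required of both, the shares were 19.5% in the MWA library and 18.6% in the MWA plus TIGIT library. Each of the 3 intervals included 0, so no difference in the share of Tregs was detectable at this depth. With at least 2 Foxp3 UMIs required, all 3 differences took the opposite sign, at 0.28, 0.99 and 1.58 points.

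**Figure D1:**
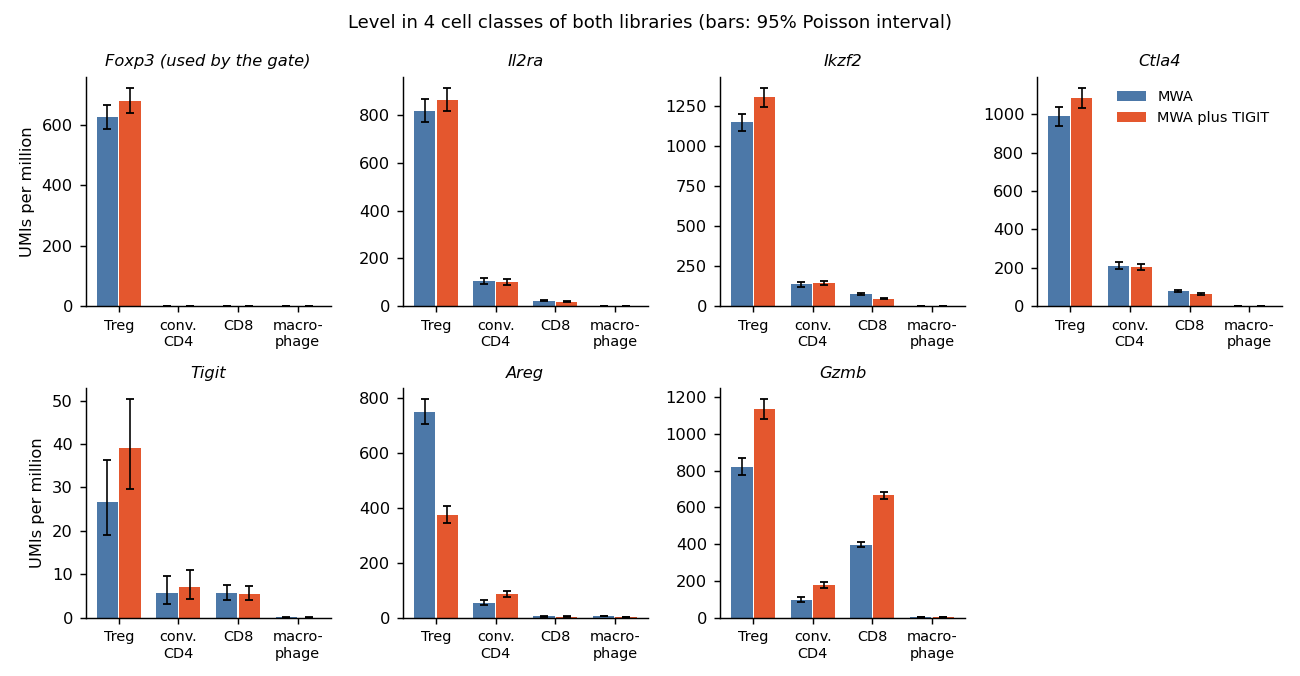
Levels (CPM, linear axes from 0) of 7 genes in Tregs, conventional CD4 T cells, CD8 T cells and macrophages of the MWA and MWA plus TIGIT libraries, with 95% Poisson intervals as error bars. Il2ra, Ikzf2, Ctla4 and Tigit stood highest in Tregs of both libraries, Areg was lower in Tregs of the MWA plus TIGIT library, and Gzmb was higher there in Tregs and in CD8 T cells.

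Tregs were set against conventional CD4 T cells inside each library, which asks what marks them in these tumors. Of 6565 genes with at least 100 UMIs over the 4 sums, 266 (4.05%) were at least 2-fold higher in Tregs in both libraries and 101 (1.54%) were at least 2-fold lower. Foxp3, which the selection used, was at 624 and 678 CPM in Tregs and at 0 in the compared class by construction. Il2ra was at 817 and 864 CPM in Tregs, higher than in conventional CD4 T cells by a log2 ratio of 2.95 in the MWA library and 3.07 in the MWA plus TIGIT library. For Ikzf2 the ratios were 3.07 and 3.17, and for Ctla4 2.22 and 2.41. Scaling by edgeR's TMM factors in place of totals moved every ratio by -0.21 in the MWA library and -0.16 in the other, and the median over all counted genes was 0.18 and 0.13.

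The genes highest over conventional CD4 T cells included a pair that acts in the activation of transforming growth factor beta. Lrrc32 (GARP), which anchors the latent factor on the Treg surface, was at 93.8 and 108 CPM in Tregs and 8.63 and 6.73 CPM in conventional CD4 T cells, with log2 ratios of 3.44 and 4.01. Itgb8, the integrin chain that helps release the active factor, followed with 3.42 and 3.21. Itgae (CD103), an integrin that binds E-cadherin on epithelium, had ratios of 3.02 and 3.32. Also among the highest were the giant muscle-associated genes Neb (2.99 and 3.07) and Ttn (2.75 and 4.04) and the cytoskeletal linker Dst (3.46 and 2.98). Jchain was ranked with these genes but had no UMI in Tregs of the MWA library. It was therefore not counted as higher in both libraries. Its 365 UMIs in the MWA plus TIGIT library sat in a single cell described later.

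The genes lowest in Tregs included T cell ligands, a memory factor and an effector cytokine. Tnfsf8, which encodes CD30 ligand, had 2 and 3 UMIs in Tregs against 127 and 168 CPM in conventional CD4 T cells, with log2 ratios of -6.58 and -6.40 that rest on those few UMIs. Cd40lg, the helper ligand that activates dendritic and B cells, was at 6.65 and 6.6 CPM in Tregs and at 114 and 147 CPM in conventional CD4 T cells. Tcf7, which encodes the stem-like and memory factor TCF-1, was at 5.32 and 5.94 CPM against 102 and 116 CPM. Il22, an epithelial cytokine, had no UMI in Tregs, where 3 UMIs would be 2.0 and 1.98 CPM, and stood at 25.9 and 22.0 CPM in conventional CD4 T cells. The survival gene Bcl2 had ratios of -3.01 and -3.32. Hs3st3b1, St8sia1, Pde3b, Pdlim1 and Ehd3 completed this set, each with at most 7 UMIs in the Tregs of a library.

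By list, 12 of 18 counted Treg identity genes were at least 2-fold higher in Tregs in both libraries and none was lower, against 4.05% and 1.54% of all counted genes. Of genes known from effector Tregs of tumors, 19 of 28 were higher and 1, the tissue residency receptor Cxcr6, was lower. Of 16 suppression genes 11 were higher and none was lower, with Il10 at 2.66 and 2.78 and the cytotoxic protease gene Gzmb at 3.07 and 2.67 on the log2 scale. Of 10 inhibitory receptors 6 were higher and 1, Cd96, was lower. Of 11 costimulatory receptors 7 were higher, among them Tnfrsf4 (OX40), Tnfrsf9 (4-1BB), Tnfrsf18 (GITR) and Icos, and 2 were lower, Cd226 and Cd40lg. Among 11 central or resting genes Bcl2, S1pr1 and Tcf7 were lower. Of 14 counted T cell cytokines 3 (Areg, Ccl4 and Il10) were higher and 6 (Ccl1, Ifng, Il22, Tnfsf11, Tnfsf8 and Xcl1) were lower.

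**Figure D2:**
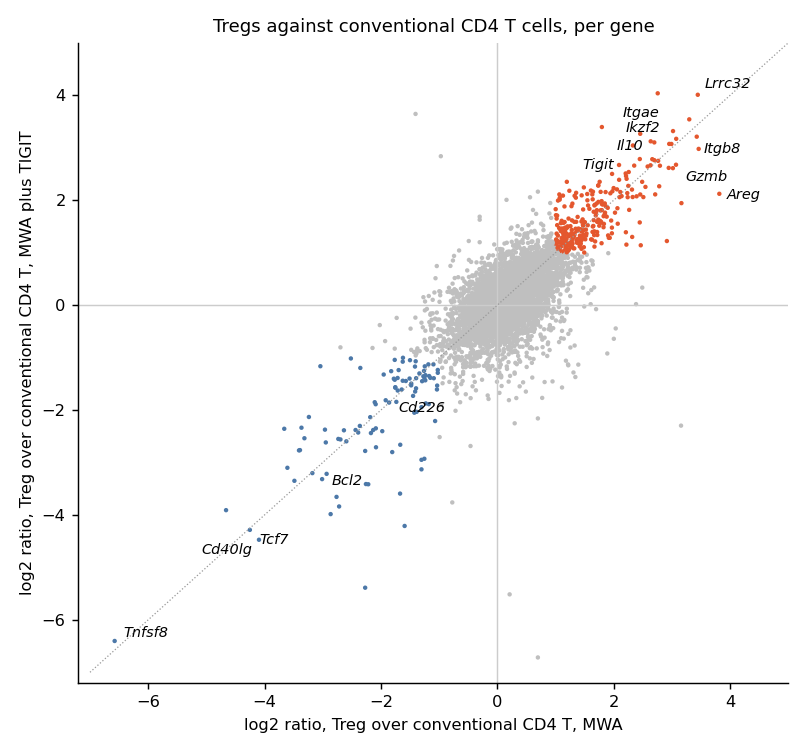
Each point is a gene with at least 100 UMIs over both classes and libraries, placed by its log2 ratio of Tregs over conventional CD4 T cells in the MWA library (horizontal) and in the MWA plus TIGIT library (vertical), with the dotted line marking equal ratios. Orange points (266) were at least 2-fold higher and blue points (101) at least 2-fold lower in both libraries; Il22 and other genes at 0 in 1 class cannot be drawn.

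The target of the antibody was sparsely captured. Tigit had 40 UMIs in 37 of 472 Tregs of the MWA library, or 26.6 CPM (19.0 to 36.2), and 59 UMIs in 51 of 416 Tregs of the MWA plus TIGIT library, or 39.0 CPM (29.7 to 50.3). The log2 ratio between libraries was 0.55 (-0.05 to 1.17), an interval that included 0. Among T cells Tigit transcripts were concentrated in Tregs. Conventional CD4 T cells held 5.76 and 7.09 CPM, CD8 T cells 5.59 and 5.51 CPM, and macrophages 2 UMIs and 1 UMI in all. After each cell was thinned to 1000 UMIs, which left out 7 and 3 Tregs, 3.01% and 4.36% of Tregs had a Tigit UMI, a difference of 1.35 points (-1.31 to 4.14). Without thinning the shares were 7.84% and 12.3%.

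The receptors that share ligands with TIGIT showed the opposite pattern between cell classes. Cd226 was at 33.9 and 35.7 CPM in Tregs and at 123 and 129 CPM in conventional CD4 T cells, so Tregs were lower by the same log2 ratio of -1.86 in each library. Between libraries its log2 ratio in Tregs was 0.07 (-0.51 to 0.65). Cd96 had 25 and 29 UMIs in Tregs, 16.6 and 19.2 CPM, against 57.1 and 50.7 CPM in conventional CD4 T cells. No difference between the libraries was detectable for either gene.

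Tregs of the MWA plus TIGIT library were then set against those of the MWA library. Of 3713 genes with at least 100 UMIs over both, 112 (3.02%) were at least 1.5-fold higher and 49 (1.32%) at least 1.5-fold lower, with a median log2 ratio of 0.07. Higher genes were 69.6% of those past 1.5-fold, a split that depended on scaling. With TMM factors the counts were 65 higher and 77 lower (45.8% higher), and with totals that left out mitochondrial and ribosomal genes they were 68 and 72 (48.6% higher). Il2ra, Ikzf2 and Ctla4, which the selection did not use, were close between libraries. Their log2 ratios were 0.08 (-0.03 to 0.19), 0.18 (0.09 to 0.28) and 0.13 (0.03 to 0.23). Foxp3 was at 0.12 (-0.01 to 0.25), but every Treg had to hold at least 1 Foxp3 UMI, so this ratio is description only. None of the 19 counted Treg identity genes, Foxp3 among them, was past 1.5-fold either way, and their median was 0.14.

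**Figure D3:**
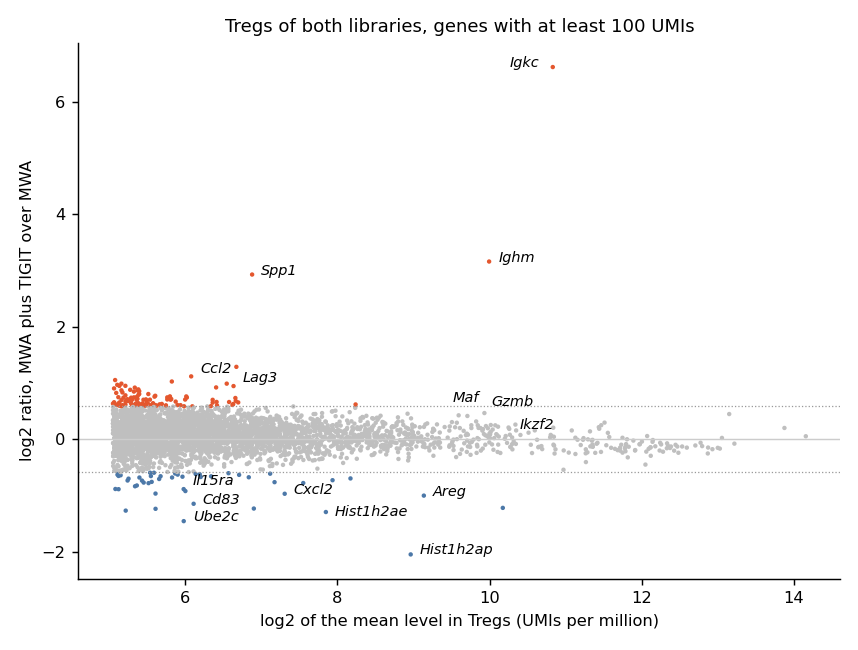
Each point is a gene with at least 100 UMIs in Tregs, placed by the log2 of its mean level in CPM (horizontal) and its log2 ratio of MWA plus TIGIT over MWA in Tregs (vertical), with dotted lines at 1.5-fold. Igkc, Ighm and Spp1 at the top owe their place to single cells, while Areg and the histone genes Hist1h2ap and Hist1h2ae stand below the line; Jchain, at 0 in the MWA library, cannot be drawn.

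Areg, which encodes the epidermal growth factor receptor ligand amphiregulin, a repair factor of tissue Tregs, was lower in the MWA plus TIGIT library. It had 1128 UMIs, or 751 CPM, in Tregs of the MWA library and 567 UMIs, or 374 CPM, in those of the MWA plus TIGIT library, a log2 ratio of -1.0 (-1.15 to -0.86). Areg UMIs were found in 186 and 131 Tregs, and 33 and 16 Tregs held 10 or more. At an equal depth of 1000 UMIs, 27.3% and 17.7% of Tregs had an Areg UMI, a difference of -9.64 points (-15.2 to -3.96), while macrophages had 0.37% and 0.24%. In conventional CD4 T cells the levels were 53.4 and 86.1 CPM, a log2 ratio of 0.69 in the other direction, and the Treg ratio lay 1.69 below it (interval of the difference -2.03 to -1.35). In CD8 T cells Areg was at 5.47 CPM (3.99 to 7.32) and 3.82 CPM (2.65 to 5.34) on 45 and 34 UMIs, with intervals that overlapped. Areg was also lower in macrophages, at 6.22 and 3.25 CPM. Over 11 other ways of counting, the log2 ratio in Tregs ranged from -1.35 to -0.89. Areg lies on chromosome 5 at 91139599 to 91148432, plus strand (GRCm38/mm10, GENCODE vM21, protein coding).

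Lag3, an inhibitory receptor that binds MHC class II, had 102 UMIs in 60 Tregs and 198 UMIs in 103 Tregs, 67.9 and 131 CPM, with a log2 ratio of 0.95 (0.59 to 1.30). Its share of Tregs at 1000 UMIs was 5.81% and 10.9%, a difference of 5.09 points (1.29 to 9.02). Lag3 was at 55.8 and 56.2 CPM in CD8 T cells and at 24.3 and 27.7 CPM in conventional CD4 T cells, so the other T cell classes differed little. The ratio in Tregs stayed above 0 under every alternative tried, from 0.57 to 1.19. Lag3 lies on chromosome 6 at 124904361 to 124911705, minus strand.

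Gzmb, which encodes granzyme B, did not reach 1.5-fold in Tregs but was higher in each of the 3 T cell classes. In Tregs it was at 821 CPM in the MWA library and 1133 CPM in the MWA plus TIGIT library, a log2 ratio of 0.47 (0.36 to 0.57). At 1000 UMIs 40.2% and 51.1% of Tregs had a Gzmb UMI, a difference of 10.9 points (4.12 to 17.5), against 0.24% and 0.10% of macrophages. CD8 T cells had 397 and 665 CPM and conventional CD4 T cells 97.8 and 178 CPM. The log2 ratio in Tregs minus that in conventional CD4 T cells was -0.39 (-0.64 to -0.15). The plot of UMIs per cell shows the Gzmb difference at the upper end, with 30 and 57 Tregs holding 10 or more.

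**Figure D4:**
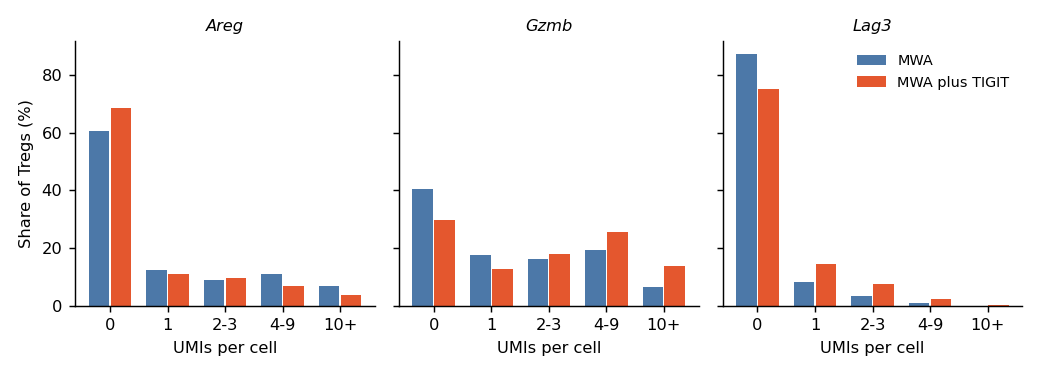
Share of Tregs (%, vertical) by the number of UMIs of Areg, Gzmb and Lag3 in a cell (horizontal), for the 472 Tregs of the MWA library and the 416 of the MWA plus TIGIT library. Tregs without an Areg UMI were 60.6% and 68.5%, whereas those without a UMI of Gzmb (40.5% and 29.8%) and Lag3 (87.3% and 75.2%) were fewer in the MWA plus TIGIT library; cells were not thinned here.

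Several of the largest ratios came from single cells. Spp1, the gene of the macrophage product osteopontin, rested on 41 and 315 UMIs, a log2 ratio of 2.93, but 264 of the 315 sat in 1 Treg with 9651 UMIs, 126 Lyz2 UMIs and a doublet call. Without the richest cell of each library its log2 ratio was 0.57. The same cell held 40 of the 140 Ccl2 UMIs, and Ccl2, a monocyte chemokine, had a log2 ratio of 1.12 that ranged from -1.11 to 1.40 across the alternatives. Of the 13 macrophage and monocyte markers with at least 100 UMIs in Tregs, 2 were at least 1.5-fold higher and none was lower. Among all counted genes the shares were 3.02% and 1.32%. The 2 markers were Spp1 and Ly6c2 (0.64, named after its value was seen). Fn1 (fibronectin) had 37 of its 188 UMIs in another cell called a doublet and ranged from -0.58 to 1.0. Jchain, the joining chain of secreted antibodies, had no UMI in Tregs of the MWA library and 365 in 1 Treg of the other library, which also held 5410 UMIs of the immunoglobulin gene Igkc and 2370 of Ighm. Igkc and Ighm were named after their values were seen. That cell carried 3 Foxp3 and 8 CD3 UMIs among its 19344. In all Tregs Igkc had 55 UMIs in the MWA library and 5461 in the other, and Ighm had 308 and 2778, so Ighm was also found outside this cell. In the MWA library Ighm was at 205 CPM in Tregs and 44.0 CPM in conventional CD4 T cells.

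Other genes at the top had fewer UMIs. Metrnl, which encodes a secreted meteorin-like factor, had 56 UMIs in 45 Tregs and 115 UMIs in 80 Tregs, a log2 ratio of 1.03 (0.55 to 1.51). Ifit1, an interferon-induced antiviral gene, had 35 UMIs in 26 Tregs and 69 UMIs in 29 Tregs, with up to 10 in 1 cell and a ratio of 0.97 (0.36 to 1.6). The proton pump subunit gene Atp6ap1 had 1.05, the RNA helicase gene Ddx27 0.99 and the thioesterase gene Lypla1 0.95, each with at most 74 UMIs in a library.

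At the low end, Ube2c, which acts in the destruction of mitotic cyclins, had 139 and 51 UMIs, a log2 ratio of -1.46 (-1.95 to -0.99), although 84.2% of its UMIs in the MWA library lay in 10 cells. Cd83, an activation marker, had 143 UMIs in 76 Tregs and 65 UMIs in 46 Tregs, a ratio of -1.15 (-1.59 to -0.72). Il15ra, the chain that presents interleukin-15, had 123 and 67 UMIs, a ratio of -0.89 (-1.34 to -0.45), and was higher in Tregs than in conventional CD4 T cells by 2.78 and 2.26. Stmn1, a regulator of microtubules in dividing cells, had a ratio of -0.76 in Tregs (-1.05 to -0.48) and of 0.60 in conventional CD4 T cells. Erh and the mitochondrial ribosomal gene Mrpl48 had -0.78 and -0.77. Cxcl2 (-0.97), Trem2 (-0.82) and Lgmn (-0.78) were also lower, but they stood at 1153, 905 and 955 CPM in macrophages of the MWA library against 210, 52.6 and 57.9 CPM in Tregs, and the part of macrophage RNA in these values was not tested.

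Among receptors, no group moved as a whole past 1.5-fold. The counts that follow stand beside 3.02% higher and 1.32% lower among all counted genes. Of 8 counted inhibitory receptors 1 (Lag3) was higher and none lower, with a median of 0.19; Vsir (VISTA) was at 0.53 (0.23 to 0.83), Klrg1 at 0.25, Pdcd1 (PD-1) at -0.01 and Havcr2 (TIM-3) at -0.05. All 9 counted costimulatory receptors had ratios above 0 and none was past 1.5-fold, with a median of 0.21 in Tregs and 0.00 in conventional CD4 T cells, while the median of all counted genes was 0.07 and 2247 of 3713 lay above 0. Cd27 stood highest at 0.45, with Tnfrsf18 at 0.25 and Icos at 0.21; Tnfrsf4 (0.04) and Cd226 (0.07) fall below 0 under TMM scaling, which shifts each ratio by -0.072. Of 15 cytokine receptors 1 was higher, Il4ra, the interleukin-4 receptor chain, at 0.61 (0.17 to 1.05) against -0.63 in conventional CD4 T cells. Il2rb, a chain of the interleukin-2 receptor, was at 0.38 (0.21 to 0.56), and the shared chain Il2rg at -0.02. Among migration genes Ccr2, the receptor of Ccl2, was at 0.40 and Cxcr3, the receptor for interferon-induced chemokines, at 0.53 (0.20 to 0.86).

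Among effector and identity factors, 2 of 27 genes of tumor effector Tregs were lower (Areg and Cd83) and none was higher, with a median of 0.06. Of 16 suppression genes 1 was higher (Lag3) and 1 lower (Areg), with a median of 0.08; Il10 was at 0.31 (0.04 to 0.58) and Tgfb1 at 0.07. Of 24 transcription factors, among them Foxp3, which the selection used, 1 was higher and none lower. The higher one was the chromatin organizer Satb1, at 0.65 (0.27 to 1.04). Maf, which drives Il10, was at 0.41 (0.30 to 0.53) and Rora at -0.52 (-0.76 to -0.29). Satb1 was also the 1 of 8 central or resting genes past 1.5-fold. Of the 5 counted T cell cytokines 1 (Areg) was lower, and Ccl5, a CD8 T cell product at 5393 and 8505 CPM in CD8 T cells, was at 0.43 in Tregs, where the part of CD8 RNA was not tested. These counts are to be read against 3.02% higher and 1.32% lower among all counted genes.

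Response programs are given by list. Of 19 type I interferon genes 2 were higher, Ifit1 and Slfn5, and none lower, with a median of 0.12. None of 21 interferon gamma genes was past 1.5-fold; H2-D1 and H2-K1, which encode MHC class I, were at 0.30 and 0.21. Of 16 NF-kB targets 1 (Cd83) was lower, with a median of -0.08, and none of 17 early T cell receptor response genes was past 1.5-fold, with a median of -0.08 in Tregs and 0.17 in conventional CD4 T cells. Of 19 glycolysis and hypoxia genes 18 lay above 0, beside 2247 of 3713 among all counted genes, with a median of 0.21; Hif1a and Gpi1 fall below 0 under TMM scaling. Of the 19 genes 1, the mitophagy gene Bnip3, was past 1.5-fold at 0.60 (0.23 to 0.98) against -0.89 in conventional CD4 T cells. Of 9 heat shock genes 7 lay below 0 with a median of -0.27, and none was past 1.5-fold. Of 15 cycling genes 2 were lower (Ube2c and Stmn1) and none higher, with a median of -0.24 in Tregs and 0.35 in conventional CD4 T cells. Among all counted genes 3.02% were higher and 1.32% lower, and the counts of each list are to be read beside those shares.

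**Figure D5:**
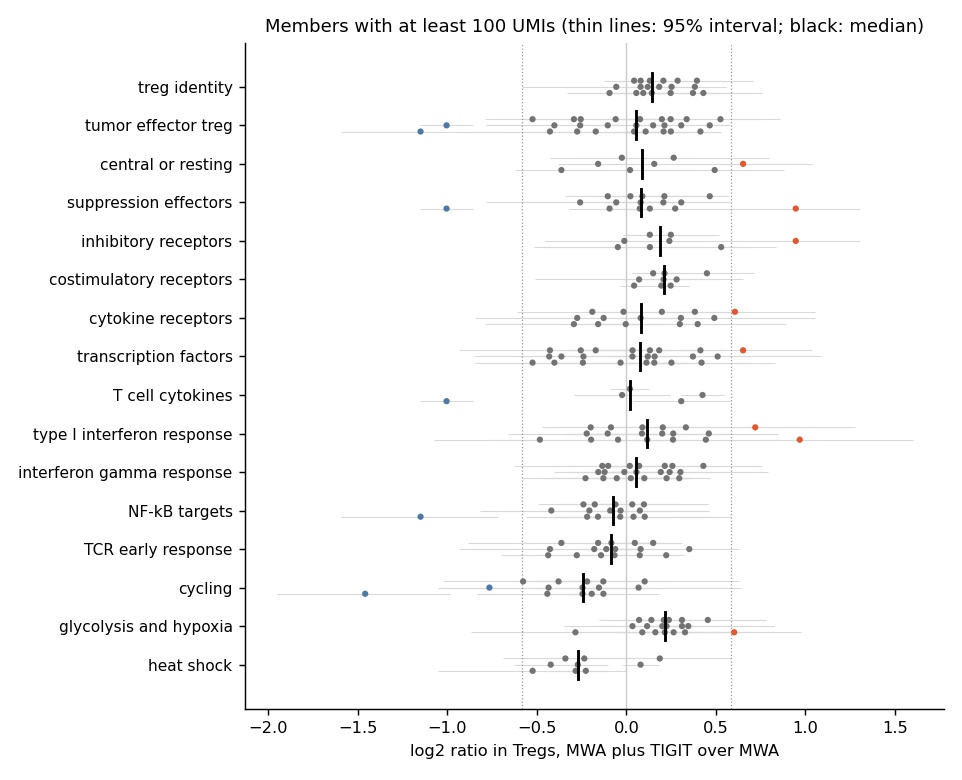
Log2 ratio of MWA plus TIGIT over MWA in Tregs (horizontal) for the members with at least 100 UMIs of 16 gene lists (rows), with 95% counting intervals as thin lines, the list median as a black bar and dotted lines at 1.5-fold. Most points lie between the dotted lines; Ube2c and Cd83 stand farthest to the left and Ifit1 farthest to the right.

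Ranges of UMI sums inside the Tregs were compared at 1000 UMIs per cell. An effector range, at least 2 UMIs of Ccr8, Tnfrsf9, Klrg1 and Il1rl1 together, held 30.3% of Tregs in the MWA library and 30.5% in the MWA plus TIGIT library, against 4.78% and 6.05% of conventional CD4 T cells. The effector range did not differ between libraries beyond counting error, with a difference of 0.19 points (-6.04 to 6.45). A cycling range of 5 mitotic genes held 3.23% and 1.94%, a difference of -1.29 points (-3.60 to 1.03). At 2000 UMIs per cell and with 1 more UMI required, the cycling range held 6.25% and 2.5%, a difference of -3.75 points (-7.17 to -0.54), so whether the interval included 0 depended on depth and limit. An interferon range, at least 3 UMIs of 5 induced genes, held 4 of 465 Tregs (0.86%) and 15 of 413 (3.63%), a difference of 2.77 points (0.70 to 5.14) that rests on these few cells. Without thinning its shares were 5.93% and 7.69%, with a difference of 1.76 points (-1.71 to 5.34).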

How the data were processed

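CD45+ cells of unablated MC38 tumors were measured by droplet RNA sequencing, 1 library per group. The authors aligned reads to mm10 with Cell Ranger (6.1.1 in the submitters' processing notes, 4.0.0 in the matrix headers) and deposited raw UMI count matrices of 32285 genes, in which 10217 and 10190 barcodes were found. The limits on UMIs, mitochondrial share and doublets that the study describes were not applied in these matrices.

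Here, barcodes stayed in where they held 200 or more genes and had no more than 10% of their UMIs from mitochondrial genes, 10037 in the MWA library and 9913 in the MWA plus TIGIT library. Genes with the same symbol were summed. Cells were assigned by fixed UMI rules without clustering. Doublets stayed in unless stated and were called by nearest neighbours among simulated doublets, at 0.8% per 1000 barcodes. Raw UMIs were summed per class and library and expressed as CPM. Levels have exact Poisson intervals, ratios exact conditional binomial intervals, shares exact binomial (Clopper-Pearson) intervals and differences of ratios Wald intervals. With 1 library per group no test across genes could estimate a spread, so no p-value is given. Genes counted had at least 100 UMIs, and "higher" or "lower" means past 1.5-fold between libraries or 2-fold between classes in both. Shares of cells with a UMI were compared after thinning each cell to 1000 UMIs at random without replacement.

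Genes named were the markers and TIGIT-axis receptors, the 10 highest and 10 lowest ratios of each comparison without mitochondrial, ribosomal, immunoglobulin, T cell receptor variable, histone and predicted genes, and list members past the fold or with most UMIs. Some items that this rule names are not reported here. Other genes named beside a list serve as examples with their values. The members and lists were chosen with earlier results of these data known. Alternatives were other barcode limits, gates, scalings, count filters, weights and thinning depths. Leaving out the richest cell of a gene, leaving out shared barcodes and the sum of histone genes were added after the data were seen. Python 3.11.15, numpy 2.4.6, pandas 2.3.3, scipy 1.17.1, scikit-learn 1.9.0, matplotlib 3.10.9, R 4.3.3 and edgeR 4.0.16 (TMM factors only) were used, and the counting was tested on simulated data.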

Additional observations from a re-analysis of the deposited data

Results flagged for a closer look

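There were 3629 genes with at least 100 UMIs in Tregs and also in conventional CD4 T cells. Those outside the gene families left out of naming were screened. For 6 of them the difference between the libraries had opposite signs in Tregs and in conventional CD4 T cells, past 1.5-fold in each. Histone genes were outside this screen, and several of them met the same limits. An example is Hist1h2ae, at -1.30 in Tregs and 1.23 in conventional CD4 T cells. The log2 ratio of MWA plus TIGIT over MWA in Tregs minus that in conventional CD4 T cells was -1.69 for Areg (-2.03 to -1.35) and -1.36 for Stmn1 (-1.69 to -1.04), which were lower in Tregs and higher in conventional CD4 T cells. It was 1.49 for Bnip3 (0.93 to 2.06), 1.24 for Il4ra (0.63 to 1.84), 1.85 for Ccl2 (1.22 to 2.47) and 5.05 for Spp1 (4.39 to 5.71), which were higher in Tregs and lower in conventional CD4 T cells. With 1 library per group these differences were not tested, and the intervals cover counting error only. Ccl2 and Spp1 had many of their UMIs in 1 Treg. Outside the compared classes, 71 Foxp3 barcodes of the MWA library and 73 of the MWA plus TIGIT library carried a CD3 and a Cd8 UMI, with a median of 5423 and 6129 UMIs.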

How the results depend on the processing

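Of 125 values of the main comparisons under alternatives, 81 moved by less than their error or by less than 1.5 times, and 44 moved further. No paired analysis was possible because each group has 1 library. The gate set the share of Tregs. Given for the MWA and then the MWA plus TIGIT library, Tregs were 9.44% and 9.28% of kept cells without barcodes over 5000 UMIs, 1.66% and 1.48% with no C1q UMI allowed, 2.43% and 2.71% with at least 2 Foxp3 UMIs (difference 0.28 points) and 1.48% and 1.45% with a Cd4 UMI required. In the same order they were 13.6% and 12.5%, 12.6% and 12.3%, 5.77% and 6.75% (difference 0.99 points), and 3.52% and 3.62% of all T cells. Of Tregs plus conventional CD4 T cells they were 46.8% and 44.99% without barcodes over 5000 UMIs, 28.3% and 29.9% with at least 2 Foxp3 UMIs (difference 1.58 points), 19.5% and 18.6% with a Cd4 UMI, and 44.3% in the MWA plus TIGIT library with no C1q UMI. Between libraries, the 112 higher genes became 23 with no C1q UMI, 65 with a Cd4 UMI, 65 with TMM factors, 68 without mitochondrial and ribosomal genes in the totals, 753 with a filter of 20 UMIs and 2710 without a filter. The 49 lower genes became 25 with no C1q UMI, 77 with TMM factors, 506 with a filter of 20 UMIs and 2622 without one. These were not always the same genes. Of the 112 and 49, only 2 and 7 stayed past 1.5-fold with no C1q UMI (when 1262 genes had 100 UMIs), 11 and 13 with a Cd4 UMI, 26 and 20 with at least 2 Foxp3 UMIs, and 32 and 17 without barcodes over 5000 UMIs, against 65 and 49 with TMM factors. Over conventional CD4 T cells, the 266 higher genes became 123 with no C1q UMI, 172 without mitochondrial and ribosomal genes in the totals, 550 with a filter of 20 UMIs and 967 without one, and the 101 lower genes became 43, 248 and 732 with no C1q UMI, the lower filter and no filter. Without thinning, the difference in the share of Tregs with a Tigit UMI was 4.42 points.

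Some named genes changed sign. Ccl2 had log2 ratios of -1.11 without barcodes over 5000 UMIs, -0.94 without called doublets, -0.055 with no C1q UMI, -1.01 with a Cd4 UMI and -0.30 as a mean of CPM per cell. Fn1 was at -0.11 without barcodes over 5000 UMIs and -0.58 with no C1q UMI. With a Cd4 UMI required, Spp1 was at -0.72 and Slfn5 at -0.14. The difference in the share of Tregs with a Klrg1 UMI was -0.62 points at 2000 UMIs per cell and 6.68 points at 1000. The cause of these changes was not tested. Depth limits sparse genes such as Tigit, Cd96 and Ccr8, and 1 library per group leaves variation between mice unmeasured.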

Other observations

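Histone genes were lower in Tregs of the MWA plus TIGIT library, a group noticed after the values were seen and outside the rule for named genes. Replication-dependent histones package newly made DNA, and most of their transcripts appear in cells that copy their genome. All 13 genes with symbols that begin with Hist and at least 100 UMIs had log2 ratios below 0 in Tregs, 9 of them were at least 1.5-fold lower and none was higher, against 1.32% lower among all counted genes. In conventional CD4 T cells all 13 had ratios above 0. Hist1h2ap had 1208 UMIs in 89 Tregs of the MWA library and 294 UMIs in 36 Tregs of the other, a log2 ratio of -2.05. These genes are similar in sequence, and how reads were assigned among them was not tested, so their sum is given beside the single genes. Over all 67 Hist genes the sum was 4191 UMIs (2789 CPM) and 2026 UMIs (1338 CPM) in Tregs, a log2 ratio of -1.06 (-1.14 to -0.98), against 0.73 (0.67 to 0.79) in conventional CD4 T cells, at 1355 and 2250 CPM, and -0.37 in CD8 T cells.

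Tregs with many histone UMIs were few, although single members reached more cells, such as Hist1h1e with UMIs in 149 and 140 Tregs. At least 10 UMIs of all Hist genes together were found in 37 Tregs (7.84%) of the MWA library. In the MWA plus TIGIT library 18 Tregs (4.33%) had them, a difference of -3.51 points (-6.81 to -0.20). At 1000 UMIs per cell, 52 of 465 Tregs (11.2%) and 21 of 413 (5.08%) had at least 3, a difference of -6.10 points (-9.84 to -2.35). The log2 ratio of the sum stayed below 0 under every alternative, at -0.59 when no C1q UMI was allowed and -1.955 when a Cd4 UMI was required.

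Transcripts of T cell receptor variable segments were sparse. Of the segments, 8 had a UMI in at least 10 Tregs, and none was found in more than 2.64% of the Tregs of a library.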
